A study of Saccharomyces cerevisiae with 6 samples.

Results

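Transcripts of 10 genes of calcium transport and calcineurin signalling were followed in budding yeast with and without VPS1, the gene of a dynamin-like GTPase that acts in vacuolar protein sorting and endocytosis. They are 10 of the 5449 yeast genes measured: the calcium transporters PMC1, VCX1, PMR1 and YVC1, the calcineurin genes CNA1, CMP2 and CNB1, the transcription factor CRZ1, and the calcineurin regulators RCN1 and RCN2. They were picked by function, with earlier results of these data known, each through the gene symbol of its probe set. Each had 1 probe set. Wild type cells were BY4741, a laboratory strain of mating type a with deletions at HIS3, LEU2, MET15 and URA3, and the vps1 deletion cells are labelled with the strain name Y05072; the labels used here state neither how VPS1 was removed nor whether the strain is a single clone. Both strains were grown at 30 degrees in supplemented minimal medium, with no added calcium or drug named, and each was measured on 3 arrays that the series describes as independent biological replicates.

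Yeast keeps cytosolic calcium low by pumping it into the vacuole and the Golgi apparatus. When cytosolic calcium rises, calmodulin binds calcium and activates calcineurin, a phosphatase made of a catalytic and a regulatory subunit. Calcineurin removes phosphates from Crz1, which enters the nucleus and raises transcription of pumps, cell wall enzymes and calcineurin's own regulators. Much of this control works on proteins, which arrays of total RNA do not measure.

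Values are log2 per probe set. As deposited, arrays of the deletion strain lay above those of wild type over the whole range, by a median of 0.51 over all genes and 0.48 over 1746 probe sets with names that are not in the yeast gene table. Changes are therefore given on values brought to 1 common distribution (the quantile scale), where the median change of all genes was -0.04. A gene is said to rise or fall when its adjusted p, from limma with Benjamini-Hochberg adjustment over all 5449 genes, was under 0.05. The 3 wild type arrays correlated at 0.985 to 0.994 over genes and the 3 deletion arrays at 0.991 to 0.995. All 10 genes lay above the background level of 3.53 to 3.59 on every array, as did 5345 of all 5449 genes. VPS1 itself was at 10.32, 9.98 and 9.95 in wild type and at 2.54, 2.40 and 2.23 in the deletion strain, below background there, which makes it at least 91.5-fold lower (adjusted p = 1.65e-07). The 5 markers of mating type a, MFA1, MFA2, STE2, STE6 and BAR1, had strain means of 10.98 to 13.27. Of the 4 markers of the alpha type, the alpha-factor genes MF(ALPHA)1 (4.34 in wild type, 3.95 in the deletion strain) and MF(ALPHA)2 (5.02 and 4.89), the receptor gene STE3 (6.69 and 7.22) and the agglutinin gene SAG1 (8.28 and 8.65) were also above background on all 6 arrays.

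Of the 10 genes, PMC1, RCN1, RCN2 and CMP2 rose in the vps1 deletion strain, and CNA1 fell relative to the shift, although as deposited it lay 0.14 above wild type. The other 5, VCX1, PMR1, YVC1, CNB1 and CRZ1, did not pass. Over all genes 13.0% passed, 6.77% higher and 6.28% lower. Arrays of the same replicate number deviated together in both strains, most clearly for numbers 1 and 2, so a fit with the replicate number as a block was also run. There PMR1 passed too, making 5 that rose and 1 that fell, against 30.8% of all genes (14.4% higher and 16.4% lower). The 3 arrays of 1 strain did not overlap with those of the other for 6 of the 10, 5 higher and 1 lower, and for 33.9% of all genes in either direction. The median change of the 10 was 0.34. As the 10 were chosen with earlier results of these data known, their counts beside these shares are not independent evidence.

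**Figure D1:**
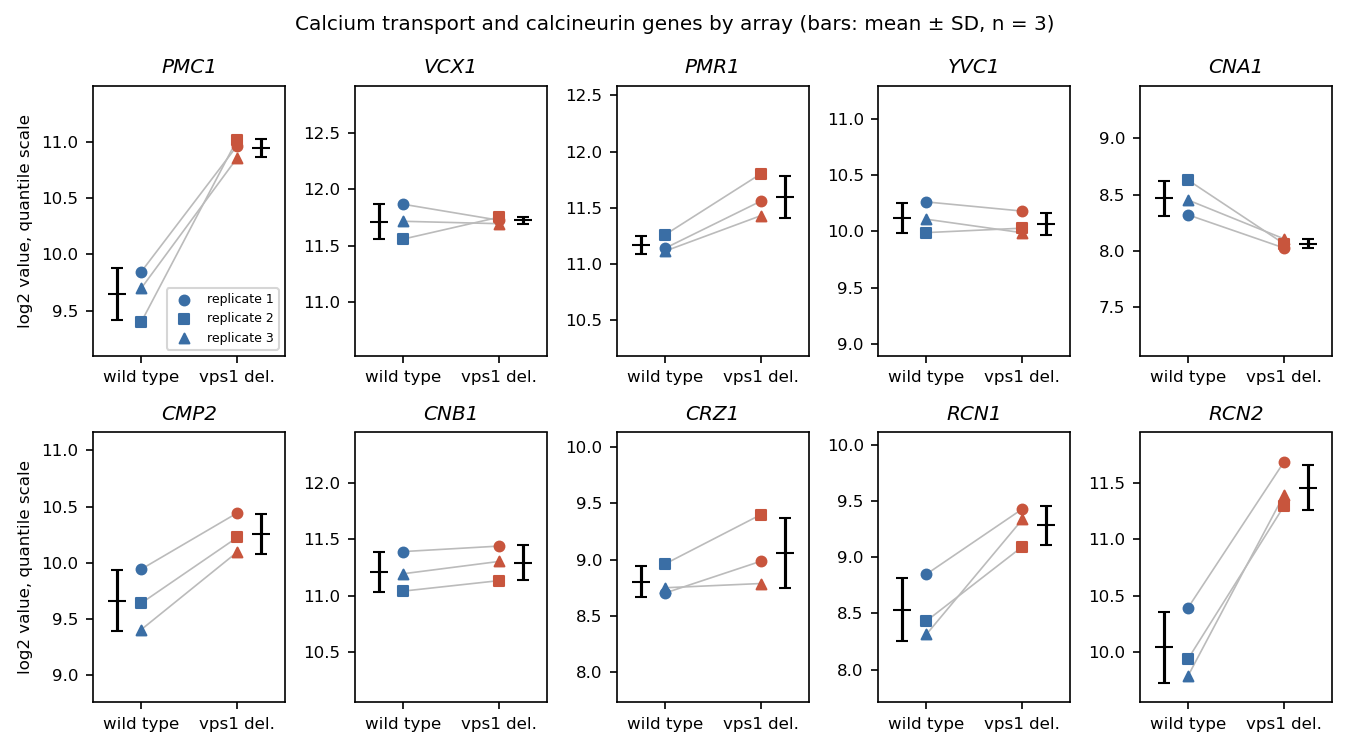
Log2 value (quantile scale, vertical axis) of each of the 10 genes on the 3 wild type arrays (blue) and the 3 vps1 deletion arrays (orange); marker shapes give the replicate number, grey lines join arrays of the same number, and black bars are the mean ± SD of 3 arrays. Every panel spans the same range of 2.4 log2 units. PMC1 and RCN2 separate most widely, and VCX1, YVC1, CNB1 and CRZ1 overlap. CNA1 lies lower in the deletion strain on this scale, although 0.14 higher as deposited.

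The signal of PMC1 (YGL006W, chromosome VII), the vacuolar calcium pump gene, rose 2.46-fold. Pmc1 is a calcium ATPase of the vacuolar membrane and a known target of calcineurin and Crz1. It was at 9.85, 9.40 and 9.70 in wild type arrays 1 to 3 and at 10.97, 11.02 and 10.86 in the deletion arrays. Every deletion array was thus at least 1.01 above every wild type array. The change was 1.30 ± 0.13 (log2, SE, n = 3 per strain), higher (adjusted p = 8.54e-04). It passed without any 1 of the 6 arrays, with changes between 1.18 and 1.40. Over all genes 1.51% changed by more in either direction.

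VCX1 (YDL128W, chromosome IV), which encodes the vacuolar exchanger that takes calcium in against protons, gave no detectable difference. It read 11.87, 11.56 and 11.72 in wild type and 11.73, 11.75 and 11.70 in the deletion strain. The deletion arrays lay within the range of the wild type arrays. The difference was 0.01 ± 0.10 (log2, SE), with a 95% interval from -0.23 to 0.25 (adjusted p = 0.964). The within-array difference of PMC1 and VCX1 moved by 1.29 between strains. No wild type array overlapped a deletion array in it (exact permutation p = 0.1, 2-sided, the smallest that 3 against 3 arrays allow).

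PMR1 (YGL167C, chromosome VII), the gene of the Golgi pump for calcium and manganese, lay higher on all deletion arrays. Its values were 11.14, 11.26 and 11.11 in wild type and 11.56, 11.80 and 11.43 in the deletion strain. All 3 deletion arrays were above all 3 wild type arrays, and array 2 was the highest in both strains. The change of 0.43 ± 0.12 (log2, SE) missed the threshold (adjusted p = 0.0552) and passed in the blocked fit (0.00915). PMC1 changed by 0.87 more than PMR1 (exact permutation p = 0.1).

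The vacuolar release channel gene YVC1 (YOR087W, chromosome XV) did not pass either. Yvc1 is a TRP-type channel through which calcium leaves the vacuole. Its values of 10.26, 9.99 and 10.11 in wild type overlapped those of 10.18, 10.03 and 9.99 in the deletion strain. The difference was -0.05 ± 0.11 (log2, SE), with a 95% interval from -0.31 to 0.20 (adjusted p = 0.796). Among the 4 transporters the change thus ran from -0.05 for YVC1 to 1.30 for PMC1.

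**Figure D2:**
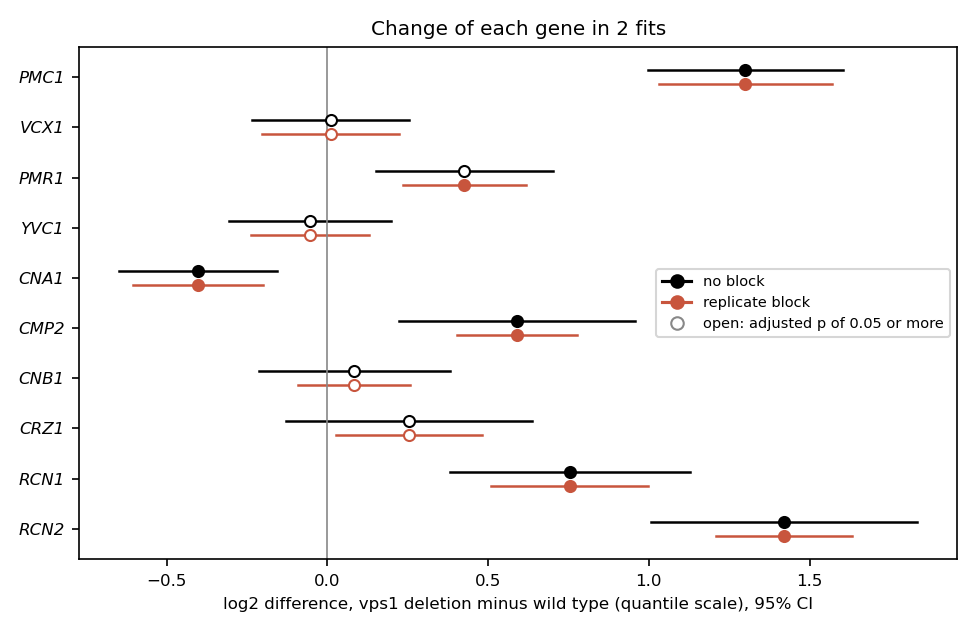
Change of each of the 10 genes (log2 difference, deletion minus wild type, quantile scale, horizontal axis) with its 95% interval in the fit without (black) and with (orange) the replicate number as a block; filled points have an adjusted p under 0.05. PMC1 at 1.30 and RCN2 at 1.42 lie farthest from 0, PMR1 is filled in the blocked fit alone, and CNA1 lies below 0 at -0.40 on this scale, against 0.14 as deposited.

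The genes of the alternative catalytic subunits of calcineurin, CNA1 (YLR433C, chromosome XII) and CMP2 (YML057W, chromosome XIII), moved apart. CNA1 read 8.32, 8.63 and 8.45 in wild type and 8.03, 8.06 and 8.11 in the deletion strain. All 3 deletion arrays were below all 3 wild type arrays. The change was -0.40 ± 0.11 (log2, SE, adjusted p = 0.0463), while on the deposited values it was 0.14 (adjusted p = 0.240). CMP2 read 9.94, 9.64 and 9.41 in wild type and 10.44, 10.22 and 10.09 in the deletion strain. Each deletion array was higher than the wild type array of the same number, by 0.50, 0.58 and 0.69, and the groups did not overlap. CMP2 rose by 0.59 ± 0.16 (log2, SE, adjusted p = 0.0491), or 1.51-fold.

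Both of these calls lie near the threshold, and both were kept without wild type array 1 and lost without any other single array. For CNA1 the adjusted p was 0.147 without wild type array 2, 0.0924 without wild type array 3, and 0.151, 0.112 and 0.121 without deletion array 1, 2 or 3. For CMP2 the corresponding values were 0.137 and 0.109, and 0.151, 0.109 and 0.0910; it also failed with median centring (adjusted p = 0.110). In the blocked fit both passed (adjusted p = 0.0137 for CNA1 and 0.00229 for CMP2). A scale factor common to an array cancels in the difference of CNA1 and CMP2 on it. That difference ran from -1.62 to -0.95 on the wild type arrays and from -2.42 to -1.99 on the deletion arrays, without overlap. It fell by 0.99 on the quantile scale and by 1.00 as deposited (exact permutation p = 0.1). The exact permutation p was 0.2 without deletion array 1 or 2, and 0.1 without any other single array.

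CNB1 (YKL190W, chromosome XI), the gene of the single regulatory subunit, did not pass. It was at 11.39, 11.04 and 11.19 in wild type and at 11.44, 11.13 and 11.30 in the deletion strain, and the arrays of the strains interleaved. The difference was 0.08 ± 0.13 (log2, SE), with a 95% interval from -0.21 to 0.38 (adjusted p = 0.718).

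CRZ1 (YNL027W, chromosome XIV), the transcription factor that calcineurin activates by dephosphorylation, did not pass. It read 8.70, 8.96 and 8.75 in wild type and 8.99, 9.40 and 8.79 in the deletion strain. Deletion array 2 was the highest of all, and deletion array 3 lay within the wild type range. The difference was 0.25 ± 0.16 (log2, SE), with a 95% interval from -0.13 to 0.64 (adjusted p = 0.361, and 0.0875 in the blocked fit).

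Both regulator genes, RCN1 (YKL159C, chromosome XI) and RCN2 (YOR220W, chromosome XV), rose. Their products bind calcineurin and inhibit it when abundant, and both genes are known targets of the pathway. RCN2 was at 10.39, 9.94 and 9.79 in wild type and at 11.69, 11.30 and 11.40 in the deletion strain, with every deletion array at least 0.90 above every wild type array. Its change of 1.42 ± 0.18 (log2, SE), or 2.68-fold, was the largest of the 10 (adjusted p = 0.00243) and passed without any 1 array. Across all genes 1.32% changed by more.

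RCN1 was at 8.85, 8.43 and 8.31 in wild type and at 9.43, 9.09 and 9.34 in the deletion strain. The groups did not overlap, although wild type array 1 and deletion array 2 came within 0.24. It rose by 0.75 ± 0.16 (log2, SE, adjusted p = 0.0227), or 1.69-fold. The call was lost without wild type array 2 or 3 (adjusted p = 0.0829 and 0.0633), without deletion array 1 or 3 (0.0842 and 0.0905) and with median centring (0.0536). RCN2 changed by 0.67 more than RCN1 (exact permutation p = 0.1). In all, 4 such differences between related genes were tested, and each had an adjusted p of 0.1 over the 4.

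Genes known to be induced through calcineurin and Crz1 were higher across the list drawn up for this comparison. Of 20 names 17 were measured, and 14 of them rose, none fell and 3 did not pass, with 17 that rose under the replicate block. Over all genes 6.77% rose, and 14.4% under the block. The median change was 1.07, against -0.04 over all genes, and 10 of the 17 rose at least 2-fold. Over all 5449 genes, 159 passed with a change of at least 2-fold in either direction. Leaving out PMC1, PMR1, RCN1 and RCN2, which belong to both sets, 11 of 13 rose. The list was written with earlier results of these data known, so its direction is not independent evidence.

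The targets with the largest changes were PHO89 and GSC2. PHO89, a sodium-phosphate cotransporter, was at 6.87, 7.69 and 7.58 in wild type and at 10.15, 11.95 and 11.63 in the deletion strain. It rose by 3.86 ± 0.45 (log2, SE, adjusted p = 0.00188), with the deletion arrays spread more widely than those of the other targets. GSC2, the glucan synthase subunit induced under stress, went from 10.56, 10.03 and 10.22 to 13.08, 12.99 and 13.06, a rise of 2.77 ± 0.14. CMK2, a calmodulin-dependent protein kinase, was at 10.07, 9.53 and 9.23 in wild type and at 11.26, 11.26 and 11.11 in the deletion strain. Its rise of 1.60 ± 0.20 (adjusted p = 0.00243) exceeded the spread of the arrays in both strains.

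The other targets that passed rose by 0.60 to 2.40. The yapsin proteases YPS3 and YPS1 rose by 2.40 ± 0.11 and 1.46 ± 0.12, and GYP7, a Rab GTPase activator, by 1.11 ± 0.12. Cell wall genes followed, with the transglycosylase gene CRH1 up by 1.07 ± 0.18, the chitin synthase gene CHS1 by 1.05 ± 0.10, PUN1, of the plasma membrane, by 0.97 ± 0.18, SCW10, of the glucanase family, by 0.71 ± 0.09, and KRE6, of beta-glucan synthesis, by 0.60 ± 0.11. GSC2, YPS1, YPS3 and CRH1 are also known targets of the cell wall integrity pathway, and PHO89 of the phosphate pathway, so the list is not specific to calcineurin. Wild type array 2 and deletion arrays 1 and 3 each decided the calls of KRE6 (adjusted p = 0.0508, 0.0522 and 0.0508 without them) and PUN1 (0.0603, 0.0565 and 0.0660), and KRE6 also failed with median centring (0.0617).

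Beside PMR1, the targets PLB3 and ENA5 did not pass. PLB3, a phospholipase B gene, differed by 0.36 ± 0.12 (adjusted p = 0.0938, and 0.0457 in the blocked fit). ENA5 stands for a cluster of near-identical sodium pump genes, and its brighter probe set carries the suffix of probe sets that can bind several genes. The difference was 0.29 ± 0.11 on it (adjusted p = 0.129, and 0.0319 in the blocked fit) and 0.47 on the other probe set.

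**Figure D3:**
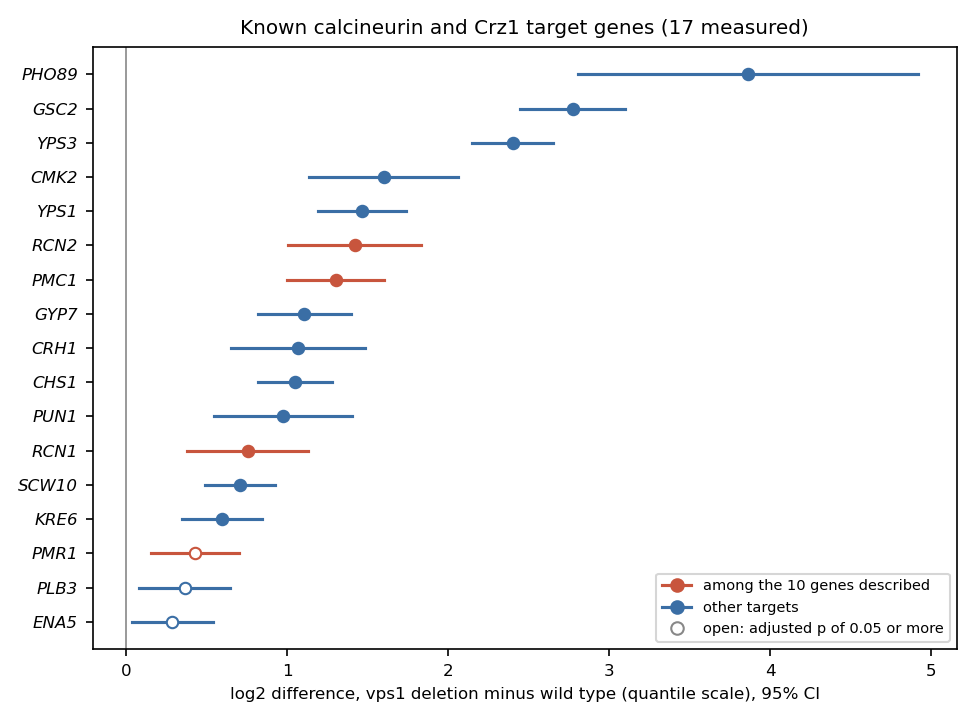
Change (log2 difference, deletion minus wild type, quantile scale, horizontal axis) with its 95% interval for the 17 measured calcineurin and Crz1 target genes, ordered by size; orange marks those among the 10 genes described, blue the others, and filled points have an adjusted p under 0.05. All 17 lie above 0, from ENA5 at 0.29 to PHO89 at 3.86, and the open points are ENA5, PLB3 and PMR1.

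Genes of calcium entry and related functions mostly did not pass. Of 10 genes of calcium influx and other calcium transport, 2 rose and 1 fell (3 and 2 in the blocked fit), with a median change of -0.05. The shares of all genes that passed were 13.0% and 30.8% in these fits. Not all of the 10 carry calcium, as PRM6, which fell, and KCH1, which rose in the blocked fit alone, are potassium transport genes. RCH1, a plasma membrane protein that limits calcium uptake, went from 8.14, 8.16 and 8.06 in wild type to 9.67, 9.87 and 9.67 in the deletion strain. It rose by 1.62 ± 0.10 (log2, SE, adjusted p = 9.03e-05) and passed without any 1 array. CSG2, an endoplasmic reticulum protein needed for growth in high calcium, rose by 0.47 ± 0.11 (adjusted p = 0.0343). It kept the call without wild type array 1 and lost it without any other single array (0.0863 to 0.113) and with median centring (0.128).

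The subunits of the high-affinity calcium channel did not pass. CCH1, the pore-forming subunit, differed by -0.28 ± 0.11 (log2, SE, adjusted p = 0.154) and its partner MID1 by -0.14 ± 0.09 (0.363). ECM7, related to channel regulators, differed by 0.03 ± 0.12, GDT1, a Golgi calcium and manganese transporter, by -0.22 ± 0.09, and SPF1, a P-type ATPase of the endoplasmic reticulum, by 0.12 ± 0.09. Each of these 3 had an adjusted p of 0.152 or more.

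FIG1 and PRM6, calcium and potassium transport genes that mating pheromone induces, had lower values on the deletion arrays. FIG1 read 5.22, 5.89 and 6.07 in wild type and 4.50, 5.14 and 4.88 in the deletion strain. It differed by -0.89 ± 0.24 (log2, SE, adjusted p = 0.0547) and passed in the blocked fit (0.00170). On the deposited values FIG1 differed by -0.25 (adjusted p = 0.417). PRM6 fell by 0.76 ± 0.18 (adjusted p = 0.0345), a call lost without wild type array 2 or 3 (0.0959 and 0.0910), without deletion array 1 or 2 (0.0789 and 0.0832) and on the deposited values (change -0.17, adjusted p = 0.459). KCH1, its homologue, differed by 0.35 ± 0.17 and passed with the block (0.228 without it and 0.0247 with it).

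Mating-type genes moved on the same arrays. Of the 5 a-specific genes MFA2, STE2 and BAR1 fell on the quantile scale, by 0.85, 0.47 and 0.57, and all 5 in the blocked fit, against 6.28% and 16.4% of all genes; as deposited STE2, MFA1 and STE6 were 0.049, 0.22 and 0.13 above wild type, BAR1 was at -0.030 (adjusted p = 0.776) and MFA2 at -0.33. STE2 lost its call without wild type array 2 (0.0640) and without deletion array 1 or 3 (0.0709 and 0.0726). Of the 4 alpha-specific genes STE3 rose by 0.54 ± 0.14 (log2, SE, adjusted p = 0.0466), against 6.77% of all genes, and SAG1 differed by 0.37 ± 0.12 and passed in the blocked fit (0.0105). STE3 lost its call without wild type array 2 or 3 (0.151 and 0.0921), without deletion array 1 or 3 (0.147 and 0.157), with median centring (0.0740) and with a mean-variance trend (0.0585). The part of mating-type genes in the values of FIG1 and PRM6 was not tested.

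Of the calcium sensors and their kinases, CMK2 alone passed among the 7 measured, in both fits, a share near the 13.0% of all genes without the block. Calmodulin itself, CMD1, differed by -0.03 ± 0.13 (log2, SE, adjusted p = 0.897), and CMK1, the other calmodulin-dependent kinase, by 0.10 ± 0.12 (0.648). The EF-hand proteins CDC31, of the spindle pole body, MLC1, a myosin light chain, FRQ1, a regulator of a phosphatidylinositol kinase, and PEF1 differed by 0.26 ± 0.10, -0.08 ± 0.10, -0.21 ± 0.20 and -0.15 ± 0.12. Whether CMK2 differs from CMK1 in its change was not tested. The 3 genes that move or modify Crz1, its importer NMD5, exporter MSN5 and kinase HRR25, differed by 0.02 to 0.14, and none passed.

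Of 6 other calcineurin substrates 1 passed, in both fits, which is near the 13.0% of all genes that passed without the block. FRT1, a tail-anchored protein of the endoplasmic reticulum that promotes growth under salt and alkaline stress, fell by 0.45 ± 0.10 (log2, SE, adjusted p = 0.0291) relative to the shift, although it was 0.096 above wild type as deposited. That call was lost without wild type array 2 or 3 (0.0862 and 0.0674) and without deletion array 1 or 3 (0.0961 and 0.104). Its homologue FRT2 differed by 0.19 ± 0.13, and SLM1 and SLM2, membrane-binding effectors of TORC2, by 0.23 ± 0.23 and 0.16 ± 0.09. The transcription regulators HCM1 and DIG2 differed by -0.05 ± 0.12 and -0.04 ± 0.24. CPR1, cyclophilin A, through which cyclosporin inhibits calcineurin, had a wild type mean of 13.88 and a deletion strain mean of 13.91.

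The vacuolar proton pump, which sets up the gradient that Vcx1 uses, gave no call. None of the 15 subunit genes measured passed in either fit, against 13.0% of all genes without the block and 30.8% with it. At an unadjusted limma p under 0.05 there were 0 without the block and 1, VMA7, with it. The share of all genes at that cut was not counted. The strains did not overlap for 3 genes higher and 3 lower in the deletion strain, against 33.9% of all genes in either direction. Changes of the 15 ran from -0.20 for VMA7 to 0.17 for STV1 with a median of -0.03. Of 7 other cation pumps of the P-type family, 2 rose, both linked to metals other than calcium, and ENA5 was a further 1 of the 3 that rose in the blocked fit, against 6.77% and 14.4% of all genes. PCA1, linked to cadmium, rose by 0.70 ± 0.11 (log2, SE, adjusted p = 0.00610), without any 1 array as well. CCC2, which loads copper into the secretory pathway, rose by 0.52 ± 0.13 (0.0440), kept without deletion array 1 and lost without any other single array (0.0713 to 0.152) and with median centring (0.0616). PMA1, the plasma membrane proton pump, its homologue PMA2, and YPK9, a vacuolar P-type ATPase, differed by 0.02 ± 0.09, -0.11 ± 0.10 and -0.15 ± 0.09.

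**Figure D4:**
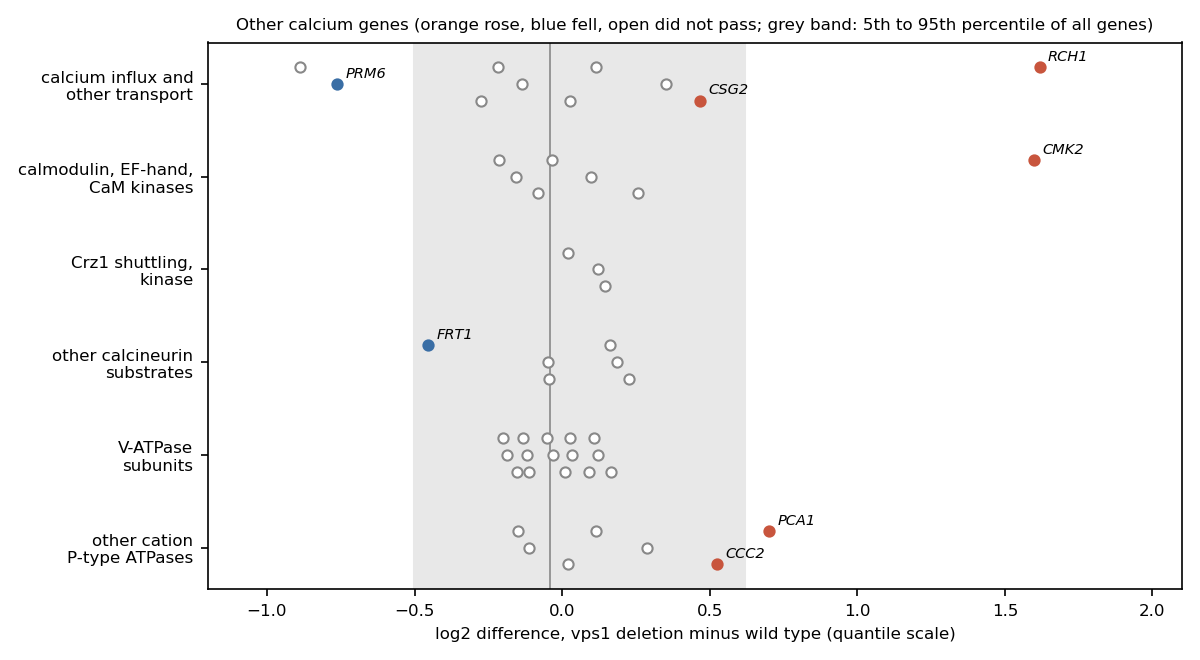
Change (log2 difference, deletion minus wild type, quantile scale, horizontal axis) of each measured gene in 6 further groups (rows); orange points rose, blue points fell, open points did not pass, and the grey band spans the 5th to 95th percentile of all genes, -0.50 to 0.62. RCH1 at 1.62, CMK2 at 1.60 and PCA1 at 0.70 lie to the right of the band among the genes that rose, every proton pump subunit lies inside it, and FRT1 is blue on this scale while it lay 0.096 above wild type as deposited.

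For each of the 5 genes that passed, the genes with the most similar course over the 6 arrays were sought among 5390 others above background. Likeness was the root mean square difference of the profiles, each taken relative to its own wild type mean. The change between strains is therefore part of it, and near genes have similar changes by construction. For PMC1 the nearest were HSP78, a mitochondrial chaperone (0.135 log2 units), CSE2, of the Mediator complex (0.150), and EGH1, a steryl glucosidase (0.159). For RCN2 they were YBR071W (0.129), YPS1 (0.129), which is also in the target list, and TIR2 (0.154), and for RCN1 they were the actin patch kinase ARK1 (0.0754) and the mevalonate pathway genes MVD1 (0.0649) and ERG13 (0.0853). CMP2 lay nearest to YLR257W (0.0537), HEM13, of haem synthesis (0.0908), and CPR4, a secretory pathway cyclophilin (0.0917). CNA1 lay nearest to FRK1 (0.0402), FAF1 (0.0482) and BSC5 (0.0485), of which FAF1 passed the test.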

How the data were processed

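Total RNA of 3 wild type and 3 vps1 deletion cultures was labelled from 100 ng by 3' in vitro transcription and hybridized to Affymetrix yeast arrays, per the labels' protocols. The deposited values are log2, 1 per probe set and array, for 10928 probe sets; GCOS, RMA and limma are named in the submitters' processing notes, with versions, order and any scaling between arrays not given in the sources used here. There is no read depth, and the number of arrays limits the precision.

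All probe sets were quantile normalized over the 6 arrays. Of 7244 probe sets with 1 symbol (1 had several, 3683 none), 5498 matched a yeast gene of the S288C R64 table by gene ID (also the source of locus tags and chromosomes); 1746 did not and gave the background level, their 95th percentile on each array. The probe set with the highest mean stood for a gene (47 genes had several), leaving 5449 genes. They were tested across all genes with limma 3.58.1 in R 4.3.3 (lmFit, eBayes, 2-sided, deletion minus wild type), with Benjamini-Hochberg adjustment and a threshold of 0.05. The procedure was tested on simulated data with independent noise on every array. These data held neither the shift between strains nor deviations shared by replicate number, so those features were not covered. Where every array of a strain was at or below background, the fold is a bound computed against that level.

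Deviations from the strain means correlated at 0.67, 0.65 and 0.29 between arrays of replicate number 1, 2 and 3. Wild type array 3 correlated almost as well with deletion array 2, at 0.23, so pairing by number was not shown for array 3. A fit with the number as a block was run as an alternative. Differences between related genes were tested by exact permutation over arrays, which took the arrays as unpaired. Alternatives were the deposited values, median centring (on the median of all probe sets), the block, and genes above background only. Further alternatives were a mean-variance trend, the mean over probe sets, and leaving out each array.

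The members and the lists were chosen with earlier results of these data known. The text names the 10 members, VPS1, all genes of lists of up to 10, in longer lists those that passed and up to 4 others by p, and for each member that passed the 3 genes with the nearest profiles. FPR1, ENA1, ENA2 and NCW2 of the lists had no probe set named for them and were not analysed here.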

Additional observations from a re-analysis of the deposited data

How the results depend on the processing

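PMC1 and RCN2 passed under every alternative run, and the calcineurin and Crz1 targets that rose numbered 11 to 17 of 17 under them, against 14, with none that fell. The number of the 10 genes that passed was 5, and it was 9 on the deposited values (all higher), 3 with median centring and 2 to 5 without 1 array; with the replicate block it was 6. Over all genes 711 passed, 369 higher and 342 lower; 4194 passed on the deposited values (4142 higher, 52 lower), 1676 with the replicate block, 791 with median centring (256 higher, 535 lower), and 322 to 787 without 1 array. Among the 10 genes, the targets and the other listed genes that passed, directions turned as follows. Listed genes that did not pass were not followed over all alternatives, and some of them turned too on the deposited values. On the deposited values, which keep the shift between strains, YVC1 was at 0.49, CNA1 at 0.14, FRT1 at 0.096 and STE2 at 0.049. With median centring VCX1 was at -0.13 and CNB1 at -0.042. Without 1 array YVC1 ran from -0.12 to 0.017, VCX1 from -0.067 to 0.086 and CNB1 from -0.00072 to 0.18; none of these 3 passed on the quantile scale. The test on genes above background, the mean-variance trend and the mean over probe sets left the call of each of the 10 genes as it was. With the replicate block PMR1, PLB3 and ENA5 passed in addition, and no call among the 10 genes or the targets was lost. Median centring subtracted the median of all probe sets on each array, not that of the genes. That median was 5.47 to 5.64 on wild type arrays and 6.18 to 6.27 on deletion arrays. Every gene change was thus lowered equally, by more than the median change of 0.51 over all genes as deposited. VCX1 at 0.53 and CNB1 at 0.62 as deposited therefore turned negative. The calls lost with median centring carry this lowering too. Centring on the gene median was not run, and the cause of the other differences was not tested.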
